A study of Homo sapiens with 24 samples.

Results

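The comparison described here is the difference between the response of HT115 cells to wild-type MLK4 and their response to the E314K form of the same kinase. It was computed for each gene as the change with tetracycline in the wild-type derivative minus the change with tetracycline in the E314K derivative. It used the 12 HT115 arrays of the 24 in the series, 3 in each of 4 groups. The other 12 arrays are of the line HCT15.

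The series asked how colon cancer cells with an inactive MLK4 of their own respond when the kinase is put back, and per the labels the E314K induction is the control experiment. HT115 is an established colorectal cancer line that, per the labels, carries loss-of-function mutations of MLK4, a background that all 4 groups share. The groups are HT115 with inducible wild-type MLK4 (WT) with and without a Tet tag in the sample title, and HT115 with inducible MLK4 E314K with and without that tag. The Tet tag stands for 24 h of tetracycline. What the arrays without the tag received is not stated, and they are called untagged. Which promoter drives MLK4, and whether each derivative is a clone or a pool, is not stated in the labels. The labels do not state separate cultures for the replicates, and p-values therefore reflect only how far these arrays spread, which may be technical.

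MLK4, whose gene is now named MAP3K21, belongs to the mixed-lineage kinases. Such kinases can phosphorylate the MAP kinase kinases MKK4 and MKK7, which in turn activate the JNK kinases. JNK phosphorylates JUN and ATF2, subunits of the transcription factor AP-1, and AP-1 raises early genes such as matrix metalloproteinases, as well as DUSP phosphatases that switch MAP kinases off again. The series title names this route and, at its end, p21 (from CDKN1A) and p15 (from CDKN2B), which inhibit cyclin-dependent kinases.

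All values are RMA log2 signals, on which a step of 1 is a doubling. The forms lie on separate scales, with array medians from 5.55 to 5.61 for WT and from 6.38 to 6.48 for E314K, so levels are read only within a form and only changes are compared. Scale, derivative and form cannot be told apart in these arrays. Arrays of a group correlated at 0.9925 to 0.9955 for WT and at 0.9872 to 0.994 for E314K. The 3′ minus 5′ signal of the ACTB controls, which tracks RNA integrity, was 0.42 to 0.65 in WT arrays and 0.30 to 0.41 in E314K arrays. The mean profiles of the untagged WT and E314K arrays had a Spearman rank correlation of 0.981 over 19775 genes, against 0.938 to 0.947 between HT115 and HCT15 groups. Of 14 colon epithelium markers, 10 lay above the median of every HT115 array. CEACAM5, an adhesion protein of colon epithelium, was dim in the WT arrays (4.30 to 5.26, below their medians) and bright in the E314K arrays (9.96 to 10.08). LGR5 read 5.45 to 5.96 with WT, around the medians of those arrays, and 9.63 to 10.38 with E314K, above the medians there. The leukocyte marker LYZ read 9.43 to 9.83 with WT and 13.62 to 13.82 with E314K, above the median of every array. KRT19 also lay above every median, at 12.63 to 13.06 with WT and 12.79 to 12.99 with E314K. Each reading is placed against the medians of its own form only. Of the markers of other cell types, 1 of 8 for fibroblasts, 1 of 6 for leukocytes, 1 of 6 for endothelium and 3 of 6 for neural or muscle cells lay above every array median. In the same order, 6 of 8, 5 of 6, 4 of 6 and 2 of 6 lay below every array median, PDGFRB and CD14 among them. None of these markers was called in the difference. At an unadjusted p under 0.05 it was -0.34 for PDGFRB of fibroblasts and -0.60 for CD14 of leukocytes (-0.39 without untagged E314K array 1). For PECAM1 of endothelium it was -0.52 (-0.19 as the mean of its probe sets). Other markers of these lists went the other way, such as PTPRC (0.25) and CDH5 (0.17). Differences above 0 were found for 2 of 8 fibroblast, 2 of 6 leukocyte and 3 of 6 endothelium markers. The arrays are of a cell line, and what these signals come from was not tested.

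Induction of wild-type MLK4 was followed by changes in single genes that passed the test, and induction of E314K by none. With WT, 39 genes rose and 6 fell among 19775 tested, which is 0.228% of genes. With E314K, 0 genes were called by limma (0%), with 512 at an unadjusted p under 0.05 and a smallest adjusted p of 0.262. The test of the difference itself called 2 genes (0.0101% of genes), both with the larger change with WT. The WT count rested on single arrays, being 12, 18 and 16 without untagged WT arrays 1, 2 and 3, 27 and 22 without WT Tet arrays 1 and 3, and 29 without untagged E314K array 2. The genes called in the difference were FILIP1L, a filamin A-interacting protein, and TNC, the matrix glycoprotein tenascin C. Calls were made with limma where the p adjusted by Benjamini-Hochberg was under 0.05.

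The genes called in the difference are shown first by the 150 bases before their RefSeq starts (GRCh38.p14, minus strand, 5′ to 3′), beside those of JUN, MMP7, CREB5 and DUSP1, each of which holds a motif that was searched for. The AP-1 motif TGACTCA, the related cyclic AMP response motif TGACGTCA and TGACATCA were searched on both strands. They do not overlap as spelled, and capitals mark a match. FILIP1L is drawn at both of its listed starts, chr3:99876174-99876323 and chr3:100114502-100114651, and TNC at chr9:115118158-115118307. MMP7 is at chr11:102530748-102530897 (minus strand), CREB5 at the last of its 3 listed starts, chr7:28685983-28686132 (plus strand), DUSP1 at chr5:172771196-172771345 (minus strand) and JUN at chr1:58784048-58784197 (minus strand).
FILIP1L, start 1: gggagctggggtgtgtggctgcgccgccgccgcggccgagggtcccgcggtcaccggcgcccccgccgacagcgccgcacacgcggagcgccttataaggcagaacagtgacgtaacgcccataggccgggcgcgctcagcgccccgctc
FILIP1L, start 2: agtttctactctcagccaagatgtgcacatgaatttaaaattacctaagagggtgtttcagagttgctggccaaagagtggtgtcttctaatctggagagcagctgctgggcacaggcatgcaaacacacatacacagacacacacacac
TNC: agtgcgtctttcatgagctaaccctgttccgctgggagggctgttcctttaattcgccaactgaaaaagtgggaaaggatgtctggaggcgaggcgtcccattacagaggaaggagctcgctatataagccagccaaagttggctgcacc
MMP7: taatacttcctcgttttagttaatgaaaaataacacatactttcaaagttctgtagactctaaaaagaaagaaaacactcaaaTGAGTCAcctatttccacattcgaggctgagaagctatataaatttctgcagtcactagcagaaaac
CREB5, start 3: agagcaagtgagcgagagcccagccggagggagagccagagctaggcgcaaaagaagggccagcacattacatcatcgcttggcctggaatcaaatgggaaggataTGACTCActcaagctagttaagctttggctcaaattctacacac
DUSP1: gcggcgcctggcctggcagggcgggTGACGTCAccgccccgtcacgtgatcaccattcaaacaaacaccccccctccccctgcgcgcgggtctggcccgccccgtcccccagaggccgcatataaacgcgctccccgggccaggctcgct
JUN: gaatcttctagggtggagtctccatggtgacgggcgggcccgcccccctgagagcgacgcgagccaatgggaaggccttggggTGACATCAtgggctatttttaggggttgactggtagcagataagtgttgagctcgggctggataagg

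None of the 3 motifs was found in the windows of FILIP1L and TNC. MMP7 held TGAGTCA, the other strand of the AP-1 motif, 67 bases before its start, and CREB5 held TGACTCA 44 bases before the start shown, while the windows of its other 2 starts held none of the 3 motifs. DUSP1 held TGACGTCA 125 bases upstream, and JUN held TGACATCA 67 bases upstream. Over all 35116 windows of this length, 2.89% held TGACTCA, 1.40% held TGACGTCA and 1.96% held TGACATCA. Of the 39 genes that rose with WT, 34 were matched to RefSeq starts. TGACTCA was found at a start of 5 of these (ADGRF4, CREB5, LINC00973, MMP7 and ZBTB20) and at a start of 3.59% of all genes. TGACGTCA was found at 2 (DUSP1 and MCAM, against 1.74% of all genes) and TGACATCA at 2 (ATF3 and CNN3, against 2.39%). A match is a description of the letters and not of a bound site.

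FILIP1L had the difference with the smallest p. Its signal was 6.89, 6.36 and 6.47 in untagged WT arrays and 9.05, 8.43 and 8.71 in WT Tet arrays. In E314K it was 8.70, 8.49 and 8.50 untagged and 8.26, 8.87 and 8.24 with Tet. All WT Tet arrays lay above all untagged WT arrays, whereas the E314K groups overlapped. The change was 2.16 with WT (SE 0.20) and -0.11 with E314K (SE 0.20). The difference of 2.26 (SE 0.28, 95% interval 1.66 to 2.87) is a 4.79-fold larger ratio of Tet to untagged signal with WT (adjusted p = 0.0484). FILIP1L lies on chromosome 3 from 99828811 to 100114501 (GRCh38.p14). A second probe set, 1554966_a_at, gave 2.52 (SE 0.28), and another, dimmer one, 1554965_at, gave 0.94 (SE 0.53).

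TNC, on chromosome 9 from 115019575 to 115118157, was measured at 5.59, 5.55 and 5.25 in untagged WT arrays and at 7.57, 7.45 and 7.22 in WT Tet arrays. With E314K the values were 6.00, 6.07 and 6.47 untagged and 6.52, 6.19 and 6.59 with Tet. The groups were apart with WT and overlapped with E314K. The difference was 1.70 (SE 0.22, interval 1.22 to 2.18, 3.25-fold, adjusted p = 0.0484). Its other probe sets, both dim in the WT arrays, gave 0.20 and -0.04, and the mean of its 3 probe sets gave 0.62 (adjusted p = 0.853).

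Both calls lay at the edge of the threshold. FILIP1L was called under 11 of 23 alternatives, with differences from 1.91 to 2.47, and TNC under 4 of 22, with differences from 0.62 to 1.83. Leaving out any single array ended the call of TNC, with adjusted p from 0.0502 to 0.205. FILIP1L was called without untagged WT array 1 (adjusted p = 0.0420) and without E314K Tet array 2 (0.0133), and was lost without any of the other 10 arrays. Those adjusted p were 0.154 and 0.0536 without WT Tet arrays 1 and 2, 0.0793 without WT Tet array 3, and 0.144 and 0.163 without untagged WT arrays 2 and 3. They were 0.0818, 0.136 and 0.0805 without untagged E314K arrays 1, 2 and 3, and 0.0502 and 0.0841 without E314K Tet arrays 1 and 3. A fit of all 24 arrays, in which the HCT15 arrays enter the spread, called FILIP1L (0.0106), EMP3 (0.0367) and MXRA5 (0.0106) and gave TNC an adjusted p of 1. Array by array, the plot of 12 genes in the 4 groups shows how the forms differ.

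The precision of this comparison limits what it can call. A difference takes up the error of 4 groups, and its SE was 0.18 for the median gene, against 0.13 for either induction. At that SE a gene needed a difference of 1.38 on the log2 scale to reach the threshold with 3 arrays per group. The fit held no term for the replicate number, which did not meet the check for pairs described at the end. With that number as a block in limma, 17 genes were called, so the count also depends on the model. At an unadjusted p under 0.05, 407 genes had a larger change with WT (2.06%) and 463 a smaller one (2.34%), and the median difference over all genes was -0.03. Large differences leaned one way, with 44 genes at least 2-fold higher with WT and 2 at least 2-fold lower. The number at an adjusted p under 0.1 was 7, and these were FILIP1L, TNC, DMRT1, EMP3, NTN4, DUSP1 and ST3GAL6.

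The 45 genes called with WT were followed into the E314K arrays, which played no part in choosing them other than through the shared estimate of spread. For the 39 that rose with WT, the change with WT had a median of 0.99 and the change with E314K had a median of -0.02, with a range from -0.52 to 0.25. With E314K, 17 of the 39 had a change above 0, 0 had an unadjusted p under 0.05, and 1 had Tet and untagged arrays that did not overlap, where 6.16% of all genes did not overlap. With WT none of the 39 overlapped, which their choice by that same change made likely. Among all genes 14.4% did not overlap with WT. The difference was 0.37 to 3.60 with a median of 0.99, and 18 genes were at least 2-fold apart, although this value contains the WT change by which they were chosen. For the 6 that fell with WT, the median was -0.65 with WT and -0.15 with E314K, and 5 of the 6 had a change below 0 with both forms. Of these INTS4P1 had a change of -0.60 with WT and -0.26 with E314K (unadjusted p = 0.0205). In bulk RNA, fewer responding cells and less RNA per cell cannot be told apart.

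**Figure D1:**
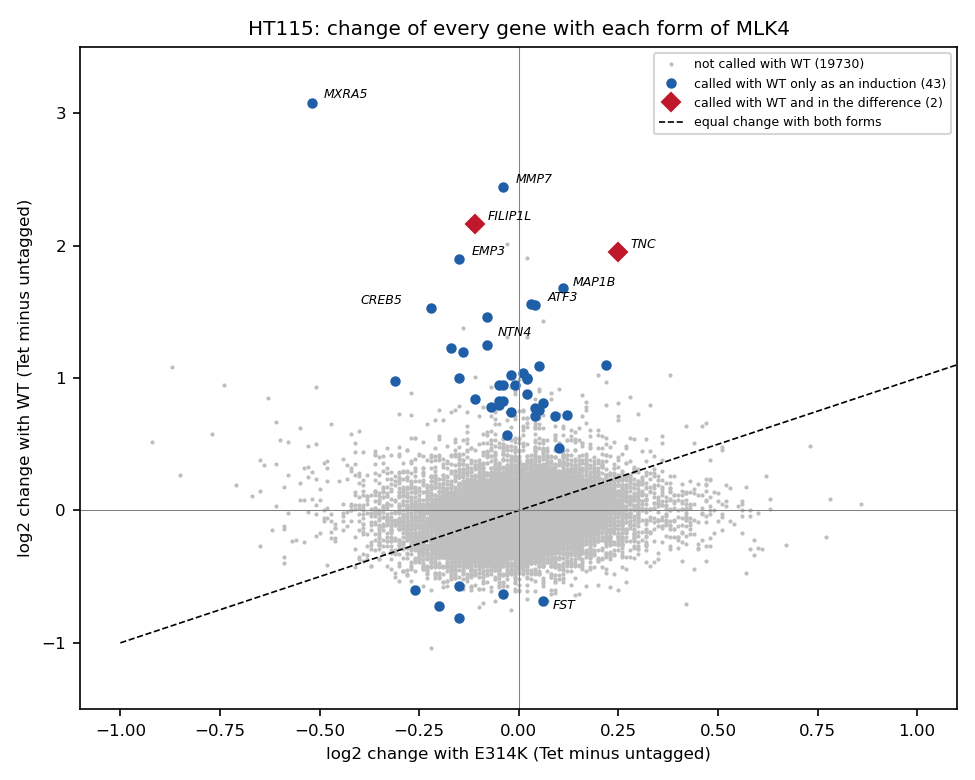
Log2 change with Tet for each of 19775 genes, with E314K on the x axis and WT on the y axis. Blue points are 43 genes called with WT but not in the difference, red diamonds are FILIP1L and TNC, and the dashed line marks equal change with both forms. The called genes spread along the y axis from -0.81 to 3.08 and lie between -0.52 and 0.25 on the x axis.

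Among matrix genes, MXRA5, a secreted matrix-remodelling protein, had the largest difference of all genes. Its signal was 3.64, 3.55 and 4.33 in untagged WT arrays and 6.89, 6.43 and 7.43 in WT Tet arrays. With E314K it was 5.27, 4.16 and 4.34 untagged and 5.36, 3.40 and 3.45 with Tet. The E314K arrays numbered 1 stood above the other E314K arrays, and the E314K groups overlapped. The difference of 3.60 (SE 0.67, interval 2.14 to 5.06) did not pass the test (adjusted p = 0.213). It passed without E314K Tet array 1 (4.25, adjusted p = 0.0300) and without both E314K arrays numbered 1 (3.91, adjusted p = 0.0271). It also passed with the replicate number as a block in limma (SE 0.25, adjusted p = 0.00801). Those numbers did not meet the check for pairs described at the end.

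NTN4, a secreted netrin of basement membranes, had 4.43, 4.11 and 4.38 in untagged WT arrays and 6.05, 5.63 and 5.63 in WT Tet arrays. In E314K it had 4.81, 4.85 and 5.26 untagged and 4.60, 5.07 and 5.01 with Tet. Only the WT groups were apart, and the difference was 1.54 (SE 0.24, adjusted p = 0.0904). Of 21 matrix and matrix-remodelling genes, 1 was called (TNC), 5 had a larger change with WT at an unadjusted p under 0.05 and 1 a smaller one. The others with a larger change were MXRA5, NTN4, the fibrillar glycoprotein FN1 (0.72) and the proteoglycan VCAN (0.51), and SPARC had -0.43. The median of the list was 0.09, against -0.03 over all genes. Of all genes, 2.06% had a larger and 2.34% a smaller change at that level. This list and the others were drawn up with earlier results of these data known.

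The matrix metalloproteinases divided. MMP7, matrilysin of epithelial cells, had 8.43, 7.84 and 7.55 in untagged WT arrays and 10.50, 10.15 and 10.49 in WT Tet arrays. The E314K arrays had 9.27, 10.07 and 10.85 untagged and 9.13, 10.08 and 10.86 with Tet. MMP7 rose with WT. In E314K it varied widely between replicate numbers, while Tet and untagged arrays of the same number read almost alike. Its difference was 2.47 (SE 0.60, interval 1.17 to 3.78, adjusted p = 0.566). With the replicate number as a block in limma, the SE was 0.21 (adjusted p = 0.0105). The stromelysin MMP10 had a difference of 1.04 and the collagenase MMP1 one of 0.74. Of 20 metalloproteinases and inhibitors, 4 had a larger and 2 a smaller change with WT at an unadjusted p under 0.05. The shares of all genes were 2.06% and 2.34%. None of the 20 was called, and their median was 0.03. The smaller changes were in MMP3 (-0.43) and MMP17 (-0.38).

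EMP3, a tetraspan membrane protein, had 5.52, 5.45 and 5.81 in untagged WT arrays and 7.74, 7.17 and 7.57 in WT Tet arrays. In the E314K arrays it was at 6.84, 6.91 and 7.52 untagged and 6.75, 6.70 and 7.36 with Tet. The E314K arrays numbered 3 were the high ones of their groups, with or without Tet. The difference was 2.05 (SE 0.31, interval 1.38 to 2.73, adjusted p = 0.0904). With the replicate number as a block in limma, its SE was 0.16 (adjusted p = 0.00801). Of the relatives of EMP3, EMP1 had 0.85 (adjusted p = 0.999), or 0.56 as the mean of its probe sets. EMP2 had 0.01 and LIM2 had -0.51.

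MAP1B, a microtubule-associated protein of neurites, had 5.45, 5.18 and 5.38 in untagged WT arrays and 7.08, 6.77 and 7.21 in WT Tet arrays. E314K arrays read 5.72, 5.44 and 5.29 untagged and 6.03, 5.51 and 5.25 with Tet. The WT groups were far apart and the E314K groups overlapped, with a difference of 1.57 (SE 0.27, adjusted p = 0.131) and 1.92 and 2.43 from its other probe sets. MCAM, an adhesion molecule of the immunoglobulin family, had a difference of 1.53 (SE 0.32, adjusted p = 0.285). Its dimmer probe set 1568191_at gave 0.07, and the mean of its probe sets gave 0.80. Of 20 SRF and actin cytoskeleton genes, 5 had a larger change with WT at an unadjusted p under 0.05 and 0 a smaller one, with a median of 0.06. The shares of all genes were 2.06% and 2.34%. The 5 were FILIP1L, which was called, the actin-oxidising enzyme MICAL2 (0.56), the LIM proteins FHL2 (0.46) and TES (0.31) and the actin-binding CORO2B (0.45). Of 20 microtubule-associated and axon guidance genes, 3 were larger and 1 smaller, and of 18 mesenchymal state genes 3 were larger and 1 smaller. No member of either list was called, and their medians were 0.09 and 0.04.

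None of the upstream kinases was called. MAP3K21 itself is read by the single probe set 228565_at, at 10.17, 10.29 and 10.26 in untagged WT arrays and 9.99, 10.22 and 9.95 in WT Tet arrays. In E314K it was at 10.68, 10.84 and 10.48 untagged and 10.72, 10.58 and 10.76 with Tet. The WT and E314K groups each overlapped, and the difference was -0.21 (SE 0.16, interval -0.55 to 0.13). Whether this probe set lies in the part of the transcript that was introduced is not stated, so it checks neither the induction nor the labels. Of 14 JNK-activating MAP3K genes, 1 had an unadjusted p under 0.05 (MAP3K20, 0.29), and the median was 0. Of 8 MKK, JNK and p38 kinases and 9 scaffolds and GTPases, 0 had an unadjusted p under 0.05 and 0 were called by limma. Over all genes, 2.06% had a larger and 2.34% a smaller change at that level. The JNK genes MAPK8 and MAPK9 had differences of 0.07 (interval -0.22 to 0.36) and -0.08 (interval -0.40 to 0.24).

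Of 10 phosphatases that switch MAP kinases off, 5 had a larger change with WT at an unadjusted p under 0.05, 0 a smaller one, and 0 were called by limma. Of all genes, 2.06% had a larger and 2.34% a smaller change at that level. DUSP1, which inactivates JNK, p38 and ERK, had 6.63, 6.56 and 6.35 in untagged WT arrays and 7.52, 7.60 and 7.41 in WT Tet arrays. In E314K cells the values were 6.65, 6.71 and 6.78 untagged and 6.91, 6.59 and 6.70 with Tet, which overlapped. Its difference was 0.97 (SE 0.15, interval 0.64 to 1.31, adjusted p = 0.0904), although the mean of its 3 probe sets gave 0.47. DUSP10, which prefers JNK and p38, had a difference of 1.40 (SE 0.31, adjusted p = 0.366), equal in both of its probe sets. DUSP8 had 0.63, DUSP4 had 0.59 and DUSP5 had 0.52. The list's median of 0.37 compares with 0.31 for the same genes in the WT change and -0.03 in the E314K change.

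AP-1 subunits and their partners were uneven. CREB5, which can pair with JUN, had 7.33, 7.55 and 7.29 in untagged WT arrays and 9.06, 9.11 and 8.60 in WT Tet arrays. Its E314K arrays had 9.17, 8.21 and 8.81 untagged and 8.82, 8.61 and 8.09 with Tet. Only the WT groups were apart. The difference was 1.76 (SE 0.34, adjusted p = 0.217), and all 4 probe sets of CREB5 gave between 1.41 and 1.76.

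ATF3, a stress-induced factor of the ATF family, had 6.84, 6.91 and 6.65 in untagged WT arrays and 8.57, 8.22 and 8.25 in WT Tet arrays. E314K cells had 8.08, 7.35 and 7.65 untagged and 8.16, 7.68 and 7.36 with Tet, again with overlap in E314K alone. Its difference was 1.51 (SE 0.29, adjusted p = 0.230), and MAFF and FOSL1 followed at 0.82 and 0.58. These 4 of 17 AP-1 family genes had a larger change with WT at an unadjusted p under 0.05, 0 had a smaller one and 0 were called, with a median of 0.16. Of all genes, 2.06% had a larger and 2.34% a smaller change at that level. Of 26 AP-1 and immediate early targets, 7 had a larger and 1 a smaller change at that level and 0 were called, with a median of 0.05. Beside MMP7, MMP10 and MMP1 they were the zinc finger factor KLF6 (0.70), the EGF receptor ligands EREG (0.55) and HBEGF (0.48) and the urokinase receptor PLAUR (0.51).

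For JUN and CDKN2B, named in the series title, the size of the difference varied with the probe set, and this variation was not tested. At the gene level JUN, by its brightest probe set 201464_x_at, had a difference of 0.38 (SE 0.24, interval -0.15 to 0.91). Its values there were 9.65, 9.65 and 9.38 in untagged WT arrays and 10.15, 9.96 and 9.53 in WT Tet arrays, which overlapped. The other 3 probe sets of JUN gave 0.71, 0.86 and 0.53, each with an interval above 0 and none called (adjusted p of 1, 0.807 and 1 over 41091 probe sets). At 201466_s_at JUN had 6.33, 6.04 and 5.71 in untagged WT arrays and 7.13, 6.85 and 6.77 in WT Tet arrays, with no overlap. For E314K the arrays gave 8.05, 8.25 and 7.66 there untagged and 7.98, 8.16 and 7.88 with Tet.

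CDKN2B, which codes for p15, had 4.30, 4.24 and 4.14 in untagged WT arrays and 4.78, 4.13 and 4.38 in WT Tet arrays at its brightest probe set 207530_s_at, and a difference of 0.37 (SE 0.22). At 236313_at it had 4.33, 4.66 and 4.07 in untagged WT arrays and 5.54, 5.82 and 5.68 in WT Tet arrays. With E314K this probe set read 5.10, 4.81 and 4.37 untagged and 4.79, 4.92 and 4.99 with Tet. The WT groups were clearly apart at this probe set and the E314K groups were not. There the WT change of 1.33 was called (adjusted p = 0.0138 over all probe sets), the E314K change was 0.14, and the difference of 1.19 (interval 0.63 to 1.75) was not called (adjusted p = 0.360). CDKN1A, which codes for p21, has a single probe set and a difference of 0.13 (SE 0.34, interval -0.61 to 0.86). Its untagged WT arrays read 8.63, 9.17 and 9.54 and its WT Tet arrays 8.96, 9.51 and 9.62. Of 7 CDK inhibitor genes at the gene level, 0 had an unadjusted p under 0.05 and 0 were called, with a median of 0.13. The shares of all genes were 2.06% larger and 2.34% smaller.

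Testing every probe set, an alternative added after the data were seen, called 7 of 41091 probe sets in the difference (0.017%). They were 2 of FILIP1L (2.52 and 2.26) and 1 each of TNC (1.70), CREB5 (1.54), ZBTB20 (1.65), SPRR1A (2.93) and FST (-1.48). SPRR1A, a cornified envelope protein of squamous epithelia, is represented at the gene level by 214549_x_at with a difference of 0.40, or 1.66 as the mean of its probe sets and 0.16 without WT Tet array 1. At the called probe set 213796_at it had 3.58, 2.89 and 3.38 in untagged WT arrays and 6.99, 5.84 and 6.06 in WT Tet arrays. In E314K arrays the readings were 4.07, 4.64 and 4.29 there untagged and 4.57, 4.24 and 4.43 with Tet, and only the WT groups were apart. SPRR genes are near-identical in parts, and signal can be shared between them. ZBTB20, a zinc finger repressor, had 12 probe sets with differences from -0.20 to 1.65, of which 9 had a larger change with WT at an unadjusted p under 0.05.

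FST, follistatin, which binds and neutralises activins, was the only called probe set with a smaller change with WT. At 226847_at it had 4.95, 5.12 and 4.71 in untagged WT arrays and 3.73, 3.65 and 3.91 in WT Tet arrays. The E314K derivative had 3.08, 2.82 and 3.04 untagged and 3.39, 3.39 and 3.10 with Tet. FST fell with WT and was slightly higher with Tet in E314K, by 0.31 (unadjusted p = 0.0340), without overlap in either form. In E314K the signal was very low, and the groups were barely apart, at 3.08 untagged and 3.10 with Tet where they came closest. The difference at 226847_at was -1.48 (SE 0.19, adjusted p = 0.0266). The brightest probe set of FST gave -0.74 (SE 0.16, adjusted p = 0.291 in the test over genes), and 207345_at gave -0.32 (SE 0.26).

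Other genes with a smaller change with WT were not called. MDS2 had a difference of -1.13 (SE 0.22, adjusted p = 0.217), from a WT change of -0.71 and an E314K change of 0.42, and the mean of its probe sets gave -0.61. ZNF112, a zinc finger gene, had -0.62 (SE 0.12, adjusted p = 0.230), and here the movement lay on the E314K side. Its E314K arrays had a mean of 6.49 ± 0.09 untagged and 7.09 ± 0.09 with Tet (SD, n = 3), without overlap, while its WT arrays read 6.39, 6.56 and 6.47 untagged and 6.42, 6.44 and 6.48 with Tet. The phosphatase ACP3 had -0.79 and sucrase-isomaltase, SI, had -0.65 at very low signal.

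The 5 genes with the smallest p in the E314K induction were ZNF112 (0.60), IYD (0.73), ADAM28 (-0.49), GPR82 (-0.62) and EVI2A (-0.71), none past the test. For IYD, an iodotyrosine deiodinase, the WT change was 0.49 in the same direction. The membrane protease ADAM28 read 6.38, 6.27 and 6.49 untagged and 5.92, 5.89 and 5.88 with Tet in E314K, and its WT change was 0.00. Without E314K Tet array 1, 2 genes were called with E314K (LRRC2 and ZNF501).

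GDF15, a stress-induced cytokine, had 8.77, 8.98 and 9.03 in untagged WT arrays and 10.06, 10.02 and 10.46 in WT Tet arrays. E314K arrays gave 10.11, 9.65 and 9.79 untagged and 10.10, 9.76 and 9.44 with Tet, which overlapped, and its difference was 1.34 (SE 0.25, adjusted p = 0.213). Of 26 ATF4-driven stress response genes, 5 had a larger change with WT at an unadjusted p under 0.05, 0 a smaller one and 0 were called. The others were the cystine transporter SLC7A11 (0.86), the glutathione-degrading CHAC1 (0.82), SESN2 (0.69) and DDIT3 (0.41). The list's median was 0.18, and 22 of 26 differences were above 0, where 8217 of 19775 genes were. At an unadjusted p under 0.05, 2.06% of all genes had a larger and 2.34% a smaller change.

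Of 13 EGF receptor ligands, receptors and feedback genes, 4 had a larger change with WT at an unadjusted p under 0.05, 0 a smaller one and 0 were called, with a median of 0.30. The shares of all genes were 2.06% larger and 2.34% smaller. ERRFI1, an inhibitor of the EGF receptor, led with 0.99 (SE 0.19, adjusted p = 0.216). The Wnt antagonist DKK1 had a difference of 2.04 with a wide interval, from 0.62 to 3.47, and its untagged WT arrays read 4.75, 6.32 and 6.65. LEF1, EPHB3 and NKD1, Wnt targets, had -0.34, -0.35 and -0.35. The TGF-beta target PMEPA1 had 1.12, the tight junction protein CLDN1 had 0.77, the immune ligand HHLA2 had 1.34 and the intestinal keratin KRT20 had 0.85, none called. Each was the highest member of its list. The list medians were 0.04 for TGF-beta targets, 0.09 for epithelial junctions, 0.05 for immune ligands and -0.03 for colon epithelium. In the TGF-beta list INHBA had -0.55, and the median of the Wnt list was 0.02. Chosen after their values were seen, ST3GAL6, a sialyltransferase (1.34), KRT80, a keratin (1.04), ANXA1, annexin A1 (1.04), and IL18, a cytokine (0.97), also rose with WT and were not called in the difference. As means of all their probe sets, ST3GAL6 had a difference of 0.55 and HHLA2 one of 0.69. DMRT1, a transcription factor of the gonads, had 1.15 (SE 0.17, adjusted p = 0.0904).

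No gene of the proliferation lists passed the test. Of 20 G1/S and DNA replication genes and 20 G2/M and mitosis genes, 0 had an unadjusted p under 0.05 and 0 were called by limma. Their medians were -0.10 and -0.06, against -0.03 for the median of all genes. Differences below 0 were found for 16 and 17 of 20, and for 11558 of all 19775 genes. The members ranged from -0.33 to 0.07 and from -0.21 to 0.13. Cholesterol biosynthesis genes had a median of -0.14 with 1 of 16 smaller with WT at an unadjusted p under 0.05 (TM7SF2, -0.41). Over all genes, 2.06% had a larger and 2.34% a smaller change at that level. Mitochondrial ribosomal proteins had a median of 0 over 26 genes, with 0 at an unadjusted p under 0.05.

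**Figure D2:**
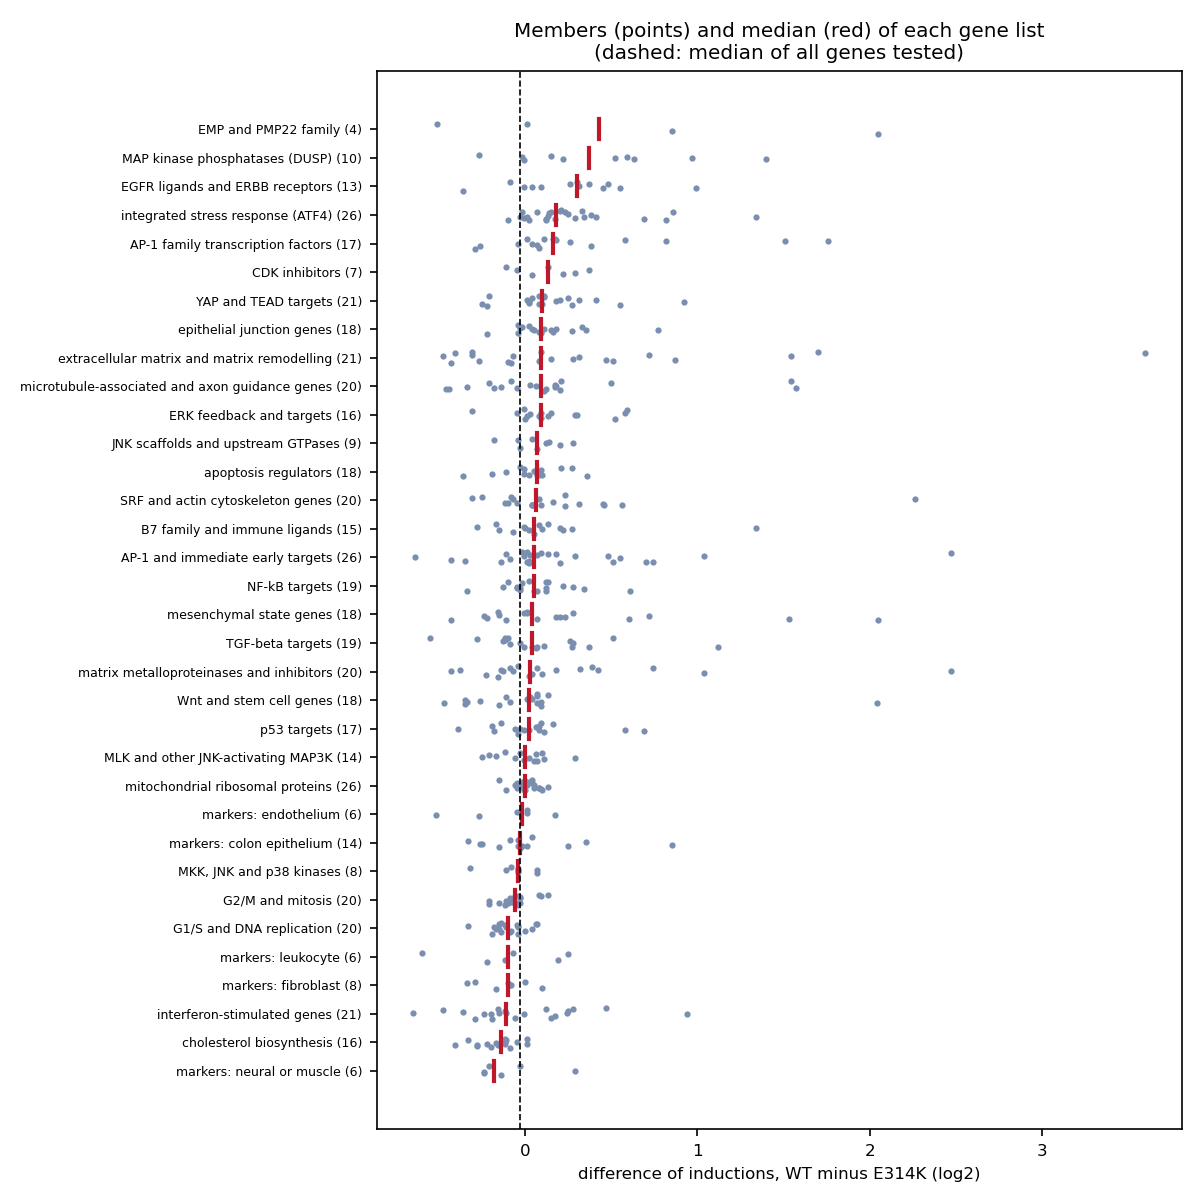
Difference of inductions (x axis, log2, WT minus E314K) for the members of 34 gene lists, with the number of genes in brackets. Points are genes, red bars are list medians and the dashed line is the median of all genes, -0.03. The list medians run from -0.18 to 0.43, and single members such as MXRA5, MMP7, FILIP1L and EMP3 lie far to the right of their lists.

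The difference between the forms in HT115 was set against the same difference in HCT15, where the mutant form is Y330H. Of 79 named genes, 0 differed between the lines by limma, with 18 at an unadjusted p under 0.05 and a smallest adjusted p of 0.0663, for FILIP1L. Over all 19775 genes, 0 were called and 514 had an unadjusted p under 0.05. Many of the 79 were named for their HT115 difference, which enters this comparison, so a high count among them was favoured by the choice. The FILIP1L difference was 2.26 in HT115 and -0.54 in HCT15 (SE 0.33), 2.80 apart (SE 0.47). For MXRA5 the values were 3.60 and 0.37, and 3.23 apart (SE 0.75, adjusted p = 1). DUSP1 had 0.97 and 1.18, which is -0.21 apart (SE 0.26), and CREB5 had 1.76 and 1.61. TNC had 1.70 and 0.54, which is 1.16 apart (SE 0.96, adjusted p = 1). EMP3 had 2.05 and 0.11, 1.94 apart (SE 0.48), and NTN4 had 1.54 and -0.35, 1.89 apart (SE 0.54). With the replicate number as a block in limma, 4 of the 79 and 7 of all 19775 genes were called, as given at the end. FST had opposite signs, with -0.74 in HT115 and 1.69 in HCT15 (SE 0.39), and was -2.43 apart (SE 0.56, adjusted p = 1).

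**Figure D3:**
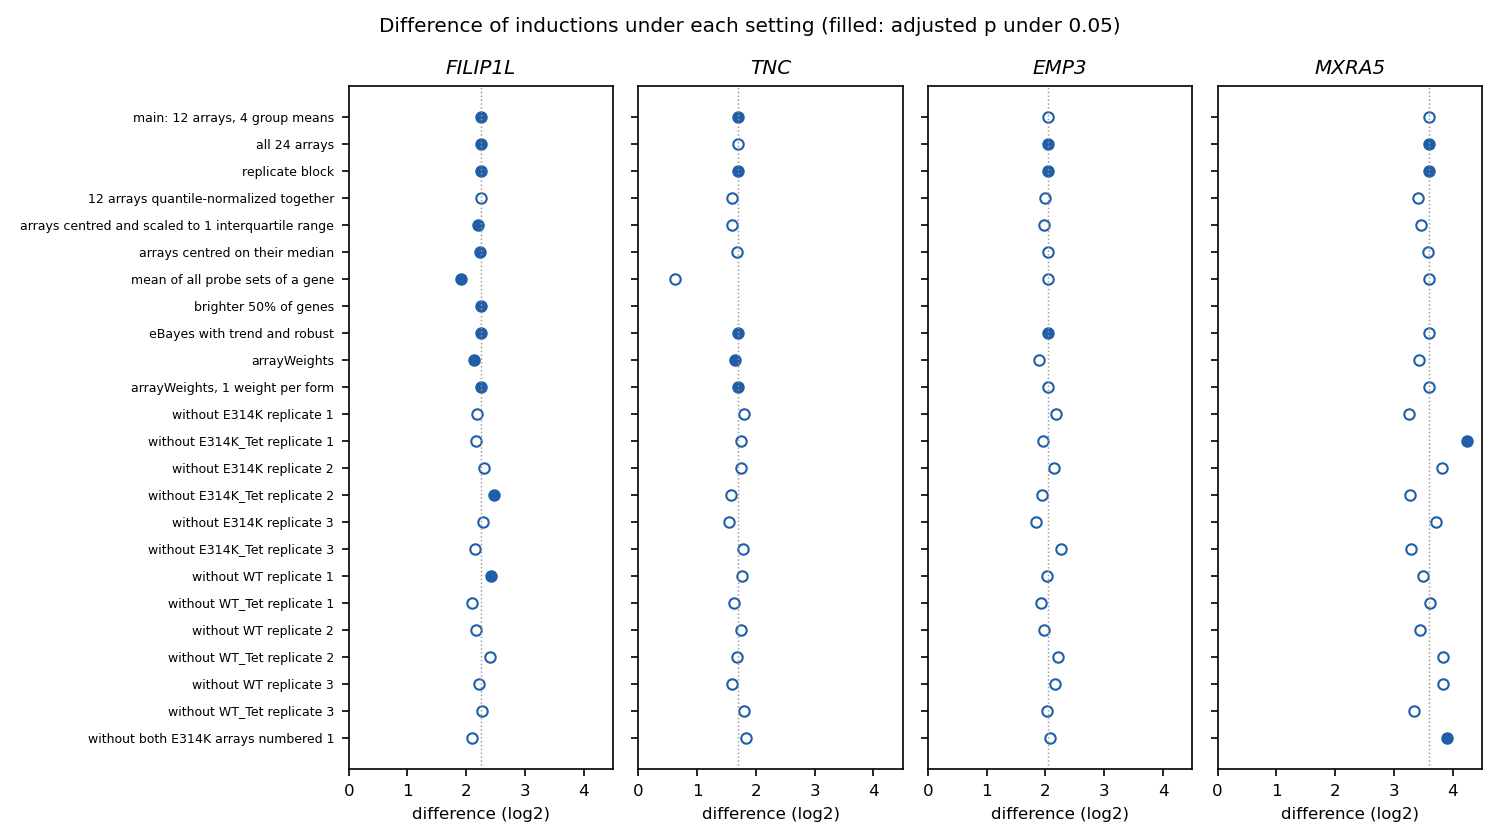
Difference of inductions (x axis, log2) for FILIP1L, TNC, EMP3 and MXRA5 under each processing setting (y axis), filled where the adjusted p is under 0.05. TNC, EMP3 and MXRA5 have no point among the brighter 50% of genes, where they were not tested. FILIP1L stays between 1.91 and 2.47, TNC drops to 0.62 as a mean of its probe sets, and MXRA5 ranges from 3.26 to 4.25.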

How the data were processed

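Per the labels' protocols, RNA was amplified with a NuGEN whole-transcriptome kit and labelled with biotin for Affymetrix U133 Plus arrays. The authors deposited log2 values for each probe set, without detection calls. The submitters' processing notes name RMA and Affymetrix Power Tools, and versions are not given in the sources used here. Leaving out 62 control probe sets, 41091 of 54675 carried 1 gene symbol in the platform's annotation, and 41037 of these matched a RefSeq gene (GRCh38.p14). Several symbols were listed for 1801, and 11777 had no name here. The brightest probe set over the 24 arrays stood for each of 19775 genes, dim ones included. RMA quantile-normalizes arrays within a run, so a shift shared by all genes of an array cannot be seen. Whether the forms were normalized in separate runs is not stated in the sources used here.

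The 12 HT115 arrays entered a limma 3.58.1 fit in R 4.3.3 of 4 group means (8 residual and 4.26 prior degrees of freedom, eBayes without trend). Errors are standard errors of that fit and intervals are 95%. p-values were adjusted by Benjamini-Hochberg over all genes. The fit was tested on simulated data, and the closing section gives the effect of other settings. Groups came from the sample titles and no 2 arrays held identical values. Precision is limited by having 3 arrays in a group.

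Always named were MAP3K21, JUN, CDKN1A, CDKN2B, MAPK8 and MAPK9, with the called genes, the 5 smallest p per direction, up to 4 called or 2 smallest-p members per list, the 5 largest WT changes not called in the difference, and the 5 smallest p with E314K; Y-linked genes are not named. Further list members below an unadjusted p of 0.05, and ST3GAL6, KRT80, ANXA1, IL18, ZBTB20, SPRR1A, DUSP8, DUSP4 and MMP1, were named after their values were seen. The comparison, the genes and the 34 lists were chosen with earlier results of these data known.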

Additional observations from a re-analysis of the deposited data

How the results depend on the processing

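The difference called 2 genes, 45 were called with WT and 0 with E314K. For the difference the count was 3 with all 24 arrays, 0 with the 12 arrays quantile-normalized together, 1 with arrays centred and scaled, 1 with arrays only centred and 1 among the brighter 50% of genes. It was 15 with trend and robust eBayes, 2 with the mean of all probe sets, 3 with arrayWeights and 2 with 1 weight per form. For WT it was 29 with all 24 arrays, 74 with trend and robust eBayes, and 31 to 56 with the other planned settings apart from the block and left-out arrays. Without 1 array the count was 0 to 3 for the difference, 12 to 47 for WT and 0 to 2 for E314K. Chosen after seeing the data, leaving out both E314K arrays numbered 1 gave 1 for the difference (MXRA5), and testing every probe set gave 7 for the difference and 79 for WT. The replicate numbers did not meet the check for pairs, which asks that every same-numbered pair deviate together: deviations of same-numbered Tet and untagged arrays correlated at 0.226, 0.188 and -0.005 with WT and at 0.594, 0.051 and 0.317 with E314K. With the number as a replicate block the count was 17 for the difference, 93 for WT and 0 for E314K. The 17 were FILIP1L, TNC, AKAP12, ANXA1, ATF3, DUSP10, EMP3, GDF15, KRT80, KRTAP3-1, LURAP1L, MAP1B, MMP7, MXRA5, NTN4, PMEPA1 and ST3GAL6, among them MMP7 and MAP1B (adjusted p = 0.0105), MXRA5 and EMP3 (0.00801) and NTN4 (0.0269). Between the lines 7 of all 19775 genes were called with the block. Among the 79 named genes 4 were called, namely FILIP1L, MXRA5 and EMP3 (0.00333) and PMEPA1 (0.0234). With the mean of all probe sets the difference changed sign or reached 0 for MAPK8 (0.00), MRPS5 (0.20) and ADAM28 (-0.02), and CDKN1A ranged from -0.12 (without untagged WT array 1) to 0.34 when 1 array was left out, with 0.00 without WT Tet array 3. The causes were not tested. All 102 list medians recomputed moved by less than the replicate spread.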

Other observations

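Outside the genes with a single symbol, 13522 probe sets with several symbols or none were tested for the difference between the forms. None was called by limma, 731 had an unadjusted p under 0.05, and the smallest adjusted p was 0.0596, at 1568879_a_at. This probe set read 6.03, 6.24 and 6.25 in untagged WT arrays and 7.17, 7.40 and 7.51 in WT Tet arrays. With E314K it read 6.22, 6.31 and 6.16 untagged and 6.18, 5.89 and 6.02 with Tet, and the difference was 1.40 (SE 0.18). The WT groups were apart and the E314K groups overlapped.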
